A study of Bos taurus with 6 samples.

Results

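The expression of 10 oocyte and germline genes was examined in bovine embryos at the 8-cell stage, when the embryonic genome is being activated. The genes were taken by symbol, and all 10 were among the 18862 genes of the files: the oocyte-secreted factors GDF9 and BMP15, the zona pellucida genes ZP2, ZP3 and ZP4, the oocyte transcription factors NOBOX and FIGLA, the germline RNA-binding protein DAZL, the meiotic kinase MOS and the AKT coactivator TCL1B. The GSKA group consisted of in vitro fertilized (IVF) embryos cultured after fertilization with 200 pmol/L GSKA, which the study describes as an inhibitor of lactate dehydrogenase A that lowers histone lactylation, and the control group of IVF embryos cultured with 0 pmol/L GSKA and an equivalent amount of the solvent DMSO. The oocytes of both groups came from slaughterhouse ovaries and were matured in vitro, cumulus cells were removed by pipetting after fertilization, and the zona pellucida was stripped before lysis. The zona was therefore absent from the samples, but the mRNAs that encode it were made earlier by the oocyte and lie inside the cells. The 8-cell stage was collected 60 h after IVF. At that stage the study found less pan-lysine lactylation with GSKA, and no significant change of H3K9 or H3K18 lactylation. Each group had 3 libraries, each made from embryo RNA with a SMART-Seq kit and holding no separate cells. The study calls its replicates biological. How many embryos made up a library and whether its replicates were separate cultures were not found in the labels or methods, and p-values cover the differences among these 6 libraries. The labels give "female" as the tissue and embryo as the cell type, without naming a breed or strain.

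These genes belong to the program of the growing oocyte. GDF9 and BMP15 are ligands of the TGF-beta family that the oocyte secretes to the granulosa and cumulus cells around it. The zona glycoproteins form the coat of the egg, and in the mouse FIGLA and NOBOX are needed for transcription of zona and growth factor genes in the oocyte. Their mRNAs are inherited by the embryo and are normally cleared as embryonic transcription begins. A level in an 8-cell embryo can thus include what remains of a maternal stock and any new transcription. The libraries were primed with oligo(dT) on polyA RNA, so a level may also depend on poly(A) tails, which were not measured. Lower RNA per cell and fewer cells contributing RNA cannot be told apart in these libraries.

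Levels are given as FPKM, in which the fragments of a gene are divided by its transcript length and by the number of mapped fragments, so that genes can be compared with each other. The depth of each library is unknown. The sum of FPKM ranged from 541159 to 551265 in the GSKA libraries and from 497035 to 581839 in the control libraries, and the genes above 0 numbered 14536 to 15320 in the GSKA libraries and 14295 to 15370 in the control libraries. Control replicate 1 stood apart, with 13.2% of its FPKM on mitochondrially encoded genes against 5.31% to 7.26% in the other libraries. Of 16 markers of the 8-cell embryo, 12 were measured under these symbols, and 11 or 12 of them had an FPKM of at least 1 in every library. Among the markers of cumulus and granulosa cells, 17 of 20 were measured, and their summed FPKM was 78.6 to 88.5 in the GSKA libraries and 45.7 to 62.2 in the control libraries, the largest contribution coming from STAR, a mitochondrial cholesterol transport protein. Of these 17 markers, 6 to 8 reached 1 FPKM in each library. Of the 7 that could be tested, 5 lay above 0 and 3 (TNFAIP6, STAR and VCAN) were higher in the GSKA group at an unadjusted p under 0.05 from limma, with 0 lower, and none passed after adjustment. Of all tested genes, 9.40% were higher and 4.03% lower at that threshold, and 57.2% lay above 0. The median log2 fold change of the 7 was 0.62. Groups did not overlap for 2 of the 7 that were higher and 1 that was lower in the GSKA group. Over all tested genes this held for 12.9% as higher and 6.45% as lower. With no filter on FPKM, 8 of all 17 lay above 0, as did 10146 of 18862 genes. The median of the 17 was then -0.04, against 0.03 over all genes. The markers INHA, INHBA, AMHR2 and CYP19A1 did not exceed 0.438 FPKM in any library, and AMH did not exceed 0.935 FPKM. Of 12 sperm markers, 8 were measured, with a sum of 14.3 to 16.3 FPKM in the GSKA libraries, against 8.39 to 13.2 FPKM in the control libraries, and PRM1 was listed at 0 in every library but GSKA replicate 1. Both sums were higher in every GSKA library than in every control library, and their part in the results below was not tested.

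The 10 genes spanned more than 2 orders of magnitude in FPKM, and their order was similar in both groups. BMP15 and ZP4 were the most abundant, with a mean of 718 ± 111 and 798 ± 170 FPKM in the GSKA group and of 681 ± 194 and 459 ± 240 FPKM in the control group (SD, n = 3 libraries each). BMP15 ranked between 81 and 169 of all genes in the 6 libraries. In every library BMP15 and ZP4 together carried 61.6% to 75.1% of the summed FPKM of the 10 genes. MOS, GDF9, ZP2 and ZP3 formed a middle group, with means of 134 to 141 FPKM in the GSKA group and 91.4 to 142 FPKM in the control group. TCL1B was lower at 61.2 ± 15.4 FPKM in the GSKA group and 32.8 ± 7.75 FPKM in the control group (SD, n = 3 each). DAZL, FIGLA and NOBOX were the least abundant, at 3.88 to 8.37 FPKM in the GSKA libraries, against 0 to 23.5 FPKM in the control libraries. The 10 genes summed to 0.450%, 0.394% and 0.332% of all FPKM in GSKA replicates 1, 2 and 3 and to 0.189%, 0.355% and 0.359% in control replicates 1, 2 and 3. These shares overlapped between the groups, and control replicate 1 held the lowest.

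**Figure D1:**
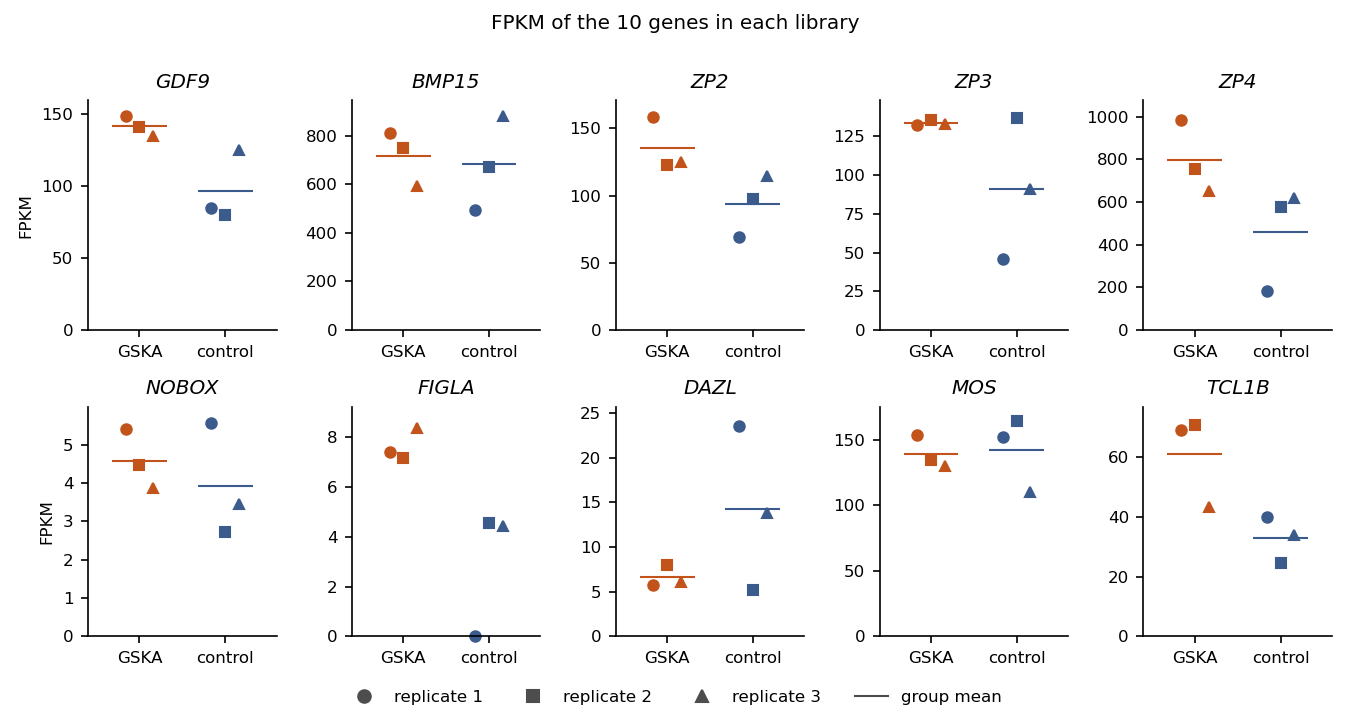
FPKM of each gene (vertical axes, from 0) in the 3 GSKA libraries and the 3 control libraries. Each point is a library, its shape gives the replicate number and the line is the group mean, left out for FIGLA, which was listed at 0 in control replicate 1. The GSKA points lie above all control points for GDF9, ZP2, ZP4, FIGLA and TCL1B.

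The comparison of the GSKA with the control group asked whether lowering lactate production changes the level of these transcripts at the time of genome activation. None of the 10 genes passed the test, limma on log2(FPKM + 1) with Benjamini-Hochberg adjustment over 10654 tested genes, where 0.357% of all genes were called at an adjusted p under 0.05, 0.225% as higher and 0.131% as lower in the GSKA group. At an unadjusted p under 0.05 from limma, 5 of the 10 were higher in the GSKA group, where 9.40% of all tested genes were, and 0 were lower, where 4.03% were. The same 5 genes, GDF9, ZP2, ZP4, FIGLA and TCL1B, were above every control library in every GSKA library, which held for 12.9% of all tested genes, and 0 of the 10 were below in every library, against 6.45%. For such a gene the exact permutation test over libraries gives p = 0.1, the smallest that 3 against 3 allow. The median log2 fold change of the 10 was 0.56, against 0.09 over all tested genes, and 8 of the 10 lay above 0, as did 57.2% of all tested genes. The genes were not chosen independently of earlier results of these data, so these counts describe them and do not test them. The count of 5 at an unadjusted p under 0.05 from limma was 1 without control replicate 1, where 963 of 10231 tested genes were higher. It was 2, 2 and 3 without GSKA replicates 1, 2 and 3, where 549 of 10215, 620 of 10252 and 728 of 10238 were. Without the intensity trend of limma it was 2, where 929 of 10654 were. Without control replicate 1 the median was 0.37, against 0.14 over all genes, and 6 of the 10 lay above both remaining controls, where 20.5% of all genes did. After median scaling, which brings the median of all genes close to 0, the count at an unadjusted p under 0.05 from limma was 2. At that setting 704 of all 10654 tested genes were higher. The number of the 10 with no overlap was 3, without GDF9 and ZP4, where 9.54% of all genes were above. Over all genes, the 38 calls were 24 higher and 14 lower, against 7 higher and 14 lower after median scaling and 14 higher and 15 lower after quantile normalization.

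GDF9, at chr7:44442457-44445396 (ENSBTAG00000009478) by the deposited coordinates, was at 148, 141 and 135 FPKM in GSKA replicates 1, 2 and 3, against 84.9, 80.1 and 125 FPKM in control replicates 1, 2 and 3. All GSKA libraries were above all controls, and the gap to control replicate 3 was small. Its log2 fold change was 0.57 (standard error 0.236, 95% interval 0.06 to 1.08, adjusted p = 0.310 from limma). BMP15, at chrX:88803967-88810596 (ENSBTAG00000045782), did not show this separation, at 809, 750 and 594 FPKM in the GSKA libraries, against 493, 671 and 880 FPKM in the control libraries. The groups overlapped over nearly their whole range, and the log2 fold change was 0.10 (standard error 0.239, 95% interval -0.41 to 0.62, adjusted p = 0.889 from limma). It was -0.11 without control replicate 1, so no direction can be given. The interval admits changes of up to 0.62 on the log2 scale, so equal levels are not shown.
Within a library, the ratio of the GDF9 level to the BMP15 level does not depend on how that library was scaled. It was 0.183, 0.188 and 0.227 in GSKA replicates 1, 2 and 3 and 0.172, 0.119 and 0.142 in control replicates 1, 2 and 3. The ratio was higher in every GSKA library, by 0.47 on the log2 scale on average, and GSKA replicate 1 and control replicate 1 were close. With 3 libraries against 3 no such ratio can reach p = 0.05 in an exact permutation test, and none was tested.

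The zona genes were all higher on average in the GSKA group and varied more between controls than between GSKA libraries. ZP4, at chr28:10614232-10621499 (ENSBTAG00000026085), was at 985, 755 and 653 FPKM in the GSKA libraries, against 183, 577 and 618 FPKM in the control libraries, or 0.96 higher on the log2 scale (standard error 0.378, 95% interval 0.15 to 1.78, adjusted p = 0.288 from limma). Control replicate 1 was far below the other libraries, and without it the log2 fold change was 0.40. ZP2, at chr25:19019168-19030962 (ENSBTAG00000011504), was at 158, 123 and 125 FPKM in the GSKA libraries, against 69.3, 97.7 and 115 FPKM in the control libraries. The 2 groups were separate by a narrow margin, and the log2 difference was 0.54 (standard error 0.247, adjusted p = 0.361 from limma), or 0.34 without control replicate 1. ZP2 is the glycoprotein that, in the mouse, is cleaved after fertilization so that further sperm cannot bind. ZP3, also on that chromosome at chr25:34446126-34453893 (ENSBTAG00000014834), was nearly constant in the GSKA libraries at 132, 135 and 133 FPKM and ranged widely in the controls, at 46.2, 137 and 91.3 FPKM. Control replicate 2 lay above all GSKA libraries, so the groups overlapped, and the log2 fold change was 0.67 (standard error 0.326, 95% interval -0.03 to 1.38, adjusted p = 0.394 from limma). Without control replicate 1 it was 0.26.
ZP4 was the most abundant zona transcript in every library. It made up 77.2%, 74.5% and 71.7% of the summed zona FPKM in GSKA replicates 1, 2 and 3 and 61.3%, 71.1% and 75.0% in control replicates 1, 2 and 3. The proportions overlapped between the groups, and ZP2 took 12.1% to 13.7% in the GSKA libraries and 12.0% to 23.2% in the control libraries, the highest in control replicate 1. The ratio of ZP2 to ZP3 was 1.20, 0.909 and 0.940 in the GSKA libraries and 1.50, 0.715 and 1.26 in the control libraries, and that of ZP4 to ZP3 was 7.44, 5.58 and 4.91 in the GSKA libraries and 3.96, 4.22 and 6.77 in the control libraries. Both ratios overlapped between the groups.

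**Figure D2:**
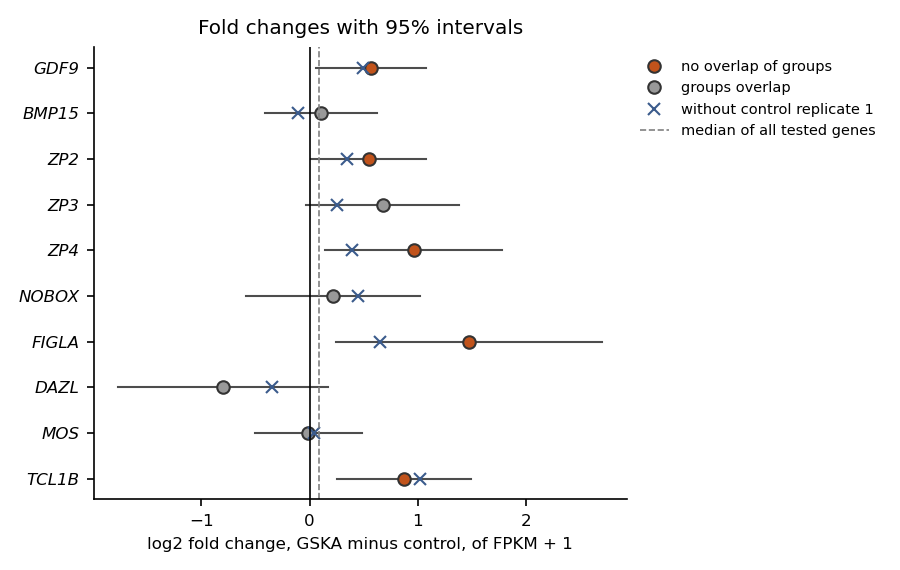
Log2 fold change of each gene, GSKA minus control, on log2(FPKM + 1) (horizontal axis), with its 95% interval from limma. Filled orange points mark genes whose groups did not overlap, crosses give the value without control replicate 1 and the dashed line is the median of all tested genes, 0.09. The crosses of ZP4 and FIGLA lie at 0.40 and 0.65, nearer to 0 than their points at 0.96 and 1.47, while that of TCL1B lies at 1.02, beyond its point at 0.87.

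The 2 oocyte transcription factors were near or above the middle of the expressed genes. NOBOX lay between percentiles 49.8 and 60.0 of the genes above 0 in the 6 libraries, and FIGLA between percentiles 59.0 and 66.0 in the libraries where it was above 0. FIGLA, a basic helix-loop-helix factor at chr11:13600445-13615325 (ENSBTAG00000008905), was at 7.39, 7.18 and 8.37 FPKM in the GSKA libraries, listed at 0 in control replicate 1 and at 4.55 and 4.42 FPKM in control replicates 2 and 3. Every GSKA library was above every control. The fitted log2 value of 1.47 was the highest of the 10 (standard error 0.569, adjusted p = 0.282 from limma) and rested on the listed 0, since it was 0.65 without control replicate 1 and 2.59 with a pseudocount of 0.1. NOBOX, a homeobox factor at chr4:107667095-107672444 (ENSBTAG00000009832), was at 5.42, 4.46 and 3.88 FPKM in the GSKA libraries, against 5.57, 2.72 and 3.45 FPKM in the control libraries. Control replicate 1, which had the lowest level of FIGLA, had the highest level of NOBOX, and the groups overlapped (log2 fold change 0.22, standard error 0.372, adjusted p = 0.844 from limma).

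DAZL, MOS and TCL1B had fitted log2 fold changes of -0.80, -0.01 and 0.87, and none passed the test. DAZL, an RNA-binding protein that activates translation in germ cells, lies at chr1:153640084-153663068 (ENSBTAG00000000502) and was at 5.77, 7.97 and 6.07 FPKM in the GSKA libraries, against 23.5, 5.21 and 13.8 FPKM in the control libraries. It was the gene of the 10 with the lowest fold change, at -0.80 on the log2 scale (standard error 0.448, 95% interval -1.77 to 0.17, adjusted p = 0.474 from limma), and control replicate 2 lay below all GSKA libraries. Without control replicate 1 the value was -0.35 and without control replicate 2 it was -1.34. The ratio of DAZL to GDF9 was 0.0389, 0.0566 and 0.0450 in the GSKA libraries and 0.277, 0.0650 and 0.111 in the control libraries, lower in every GSKA library.
MOS, the kinase that starts the MAPK cascade holding the mature egg in meiosis, is encoded at chr14:23299177-23300199 (ENSBTAG00000019145). It was at 154, 135 and 130 FPKM in the GSKA libraries, against 152, 164 and 110 FPKM in the control libraries. The groups overlapped fully, and the log2 fold change was -0.01 (standard error 0.228, 95% interval -0.51 to 0.48, adjusted p = 0.991 from limma). The MOS level was close to the GDF9 level in every GSKA library, with ratios of 1.04, 0.957 and 0.963, whereas the control libraries had ratios of 1.79, 2.05 and 0.882.
TCL1B, a relative of the AKT coactivator TCL1A, lies at chr21:60515459-60519098 (ENSBTAG00000009653). It was at 69.2, 70.9 and 43.5 FPKM in the GSKA libraries, against 39.8, 24.5 and 34.1 FPKM in the control libraries, with no overlap. Its log2 fold change of 0.87 (standard error 0.286, 95% interval 0.26 to 1.49) had the smallest p of the 10 (adjusted p = 0.209 from limma). It was the one of the 5 separated genes whose value was not lower without control replicate 1, at 1.02.

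**Figure D3:**
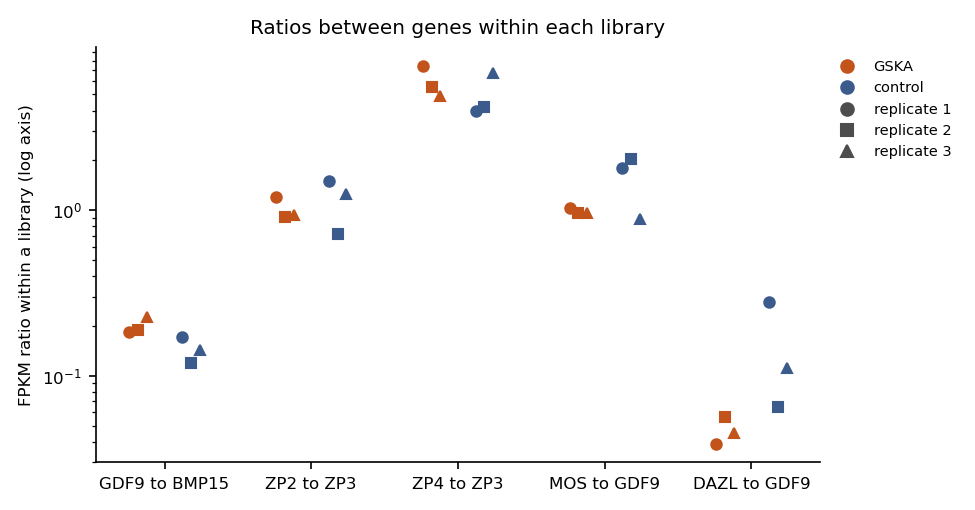
FPKM of one gene over that of another within each library (log vertical axis), for 5 pairs. Orange points are GSKA libraries, blue points control libraries, and the shape gives the replicate. The ratio of GDF9 to BMP15 is 0.183 or more in the GSKA libraries and 0.172 or less in the control libraries, DAZL to GDF9 separates in the other direction, and the zona ratios overlap.

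The spread between libraries was smaller in the GSKA group for 9 of the 10 genes, as it was for 68.1% of all tested genes on log2(FPKM + 1). The exception was TCL1B. For ZP3 the coefficient of variation was 1.23% over the GSKA libraries and 49.5% over the control libraries, and for GDF9 it was 4.79% over the GSKA libraries and 25.6% over the control libraries. For FIGLA, with its listed 0, the SD on log2(FPKM + 1) was 0.104 over the GSKA libraries and 1.42 over the control libraries. Control replicate 1 was the lowest of the 6 libraries for BMP15, ZP2, ZP3, ZP4 and FIGLA, 5 of the 10, where this held for 21.3% of all tested genes, and it was the highest for DAZL and NOBOX.
Across the 6 libraries ZP4 was most like FIGLA (Pearson r = 0.96), ZP2 most like ZP4 (r = 0.95), ZP3 most like FIGLA (r = 0.95) and GDF9 most like ZP2 (r = 0.86), all on log2(FPKM + 1). BMP15 was most like ZP4 (r = 0.79) and TCL1B most like GDF9 (r = 0.78). MOS was most like NOBOX, at r = 0.16. DAZL ran opposite to ZP3 (r = -0.95), FIGLA (r = -0.85) and ZP4 (r = -0.81), and its highest positive value was with NOBOX (r = 0.41). These values are descriptions over 6 libraries and share the difference of control replicate 1 from the rest. The genes most like the mean of the 10 were the homeobox gene PKNOX1, THRAP3, the RNase P component RPP14, SLC35B3 and the RNA polymerase II subunit POLR2C, with r = 0.99 to 1.00, in a table where 4.26% of the 10644 other tested genes reached r = 0.9.

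Genes that act with the 10 were described as lists. At an unadjusted p under 0.05 from limma, 9.40% of all tested genes were higher and 4.03% lower. Those shares stand beside each list count at that threshold below. Every GSKA library was above every control for 12.9% of all tested genes and below every control for 6.45%. Of 12 tested receptors and effectors of GDF9 and BMP15, none passed the test over all genes, and 1 was higher and 0 lower at an unadjusted p under 0.05 from limma (median log2 fold change 0.23). TGFBR1, a type I receptor through which GDF9 signals, was at 14.9, 17.5 and 11.5 FPKM in the GSKA libraries, against 1.17, 8.43 and 9.42 FPKM in the control libraries (log2 fold change 1.37, adjusted p = 0.273 from limma), with no overlap. BMPR2, the type II receptor of both ligands, was low at 0.951 to 2.06 FPKM in the GSKA libraries, against 0.634 to 1.83 FPKM in the control libraries, and BMPR1B, the type I receptor of BMP15, was at 5.95 to 8.46 FPKM in the GSKA libraries, against 4.07 to 6.71 FPKM in the control libraries. The effector SMAD2 was at a log2 fold change of 0.06, SMAD5 at 0.63 and the activin receptor ACVR2A at 0.46.
Among 8 tested genes of the egg surface, 1 was higher and 1 lower at an unadjusted p under 0.05 from limma and none passed after adjustment (median -0.16). The tetraspanin CD9, which the mouse egg needs for fusion with sperm, was at 15.0, 15.1 and 22.6 FPKM in the GSKA libraries, against 28.9, 34.6 and 35.2 FPKM in the control libraries (log2 fold change -0.89, adjusted p = 0.190 from limma). Its relative CD81 was at 22.6, 24.8 and 21.7 FPKM in the GSKA libraries, against 8.22, 16.5 and 11.7 FPKM in the control libraries (0.92, adjusted p = 0.227). Neither gene's groups overlapped, and they lay in opposite directions. ASTL, the egg protease that cleaves ZP2 in the mouse, was at a log2 fold change of -0.42 and the sperm receptor IZUMO1R at -0.29, with overlapping groups.

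Of 13 transcription factors of the oocyte and their general partners, 4 were higher and 0 lower at an unadjusted p under 0.05 from limma, and none passed after adjustment (median 0.15). The TFIIA-related factor GTF2A1L, known from germ cells, was at 71.2, 76.6 and 87.8 FPKM in the GSKA libraries, against 32.4, 40.2 and 31.8 FPKM in the control libraries (log2 fold change 1.15, adjusted p = 0.0737 from limma). It was called when 5 FPKM in 3 libraries was required (adjusted p = 0.0465 from limma) and in no other alternative, where the adjusted p was 0.0648 to 0.273. TBPL2, a relative of the TATA-binding protein that works with TFIIA in mouse oocytes, was at 1.25 and the helix-loop-helix factor SOHLH2 at 0.80, both with no overlap, while LHX8 was at 0.58 with overlap. The 4 higher genes were GTF2A1L, TBPL2, SOHLH2 and POU5F1, the last at 0.64 with no overlap. Of 21 germline RNA-binding and piRNA proteins, 2 were higher and 0 lower at an unadjusted p under 0.05 from limma, and none passed after adjustment. Of the 21, 17 lay above 0, where 57.2% of all tested genes did (median 0.32, against 0.09 over all genes). MAEL, a protein of the piRNA pathway, was at 77.5, 54.8 and 63.1 FPKM in the GSKA libraries, against 42.1, 18.6 and 38.3 FPKM in the control libraries (1.03, adjusted p = 0.183 from limma). The RNA-binding protein ELAVL2 was at 0.79 with no overlap and PIWIL3 at 0.83 with overlap. The translational regulators CPEB1, ZAR1, DDX4 and YBX2 were at 0.53, 0.42, 0.51 and 0.12 on the log2 scale, all with overlapping groups. In that list 3 genes were above and 0 below with no overlap, MAEL and ELAVL2 among them.
Among 20 tested genes of the MOS-MAPK cascade and meiotic arrest, 1 was higher and 0 lower at an unadjusted p under 0.05 from limma. The 1 was BTG4, described below, and none passed after adjustment (median 0.17). Groups did not overlap for 2 that were higher and 1 that was lower. MAP2K1 and MAP2K2, which act below MOS, were at -0.02 and -0.64. MAP2K2 was at 3.33, 3.02 and 3.63 FPKM in the GSKA libraries, against 5.53, 7.20 and 4.73 FPKM in the control libraries (adjusted p = 0.458 from limma). WEE2 and FBXO43, which hold the egg in meiosis, were at -0.04 and 0.58. The kinase AURKA was at 0.38 and the checkpoint kinase BUB1 at -0.67. Of 12 tested genes of the TCL1-AKT group, TCL1A was at 58.2, 73.3 and 35.8 FPKM in the GSKA libraries, against 24.4, 40.4 and 29.9 FPKM in the control libraries (0.77, adjusted p = 0.295 from limma). It overlapped in GSKA replicate 3 and was the 1 gene of that list higher at an unadjusted p under 0.05, with none past the adjusted threshold. AKT1 was at 0.14, TSC2 at -0.49 and PIK3R1, a regulatory subunit of PI3-kinase, at -0.71, and the median of the list was -0.10.

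Other maternal genes were set beside the 10 without a test between the lists. Of 7 tested genes of the subcortical maternal complex, KHDC3L was called higher (log2 fold change 1.46, adjusted p = 0.0348 from limma) and none was called lower. Over all tested genes, 0.225% were called higher and 0.131% lower. Of the 7, 6 lay above 0, where 57.2% of all tested genes did, and their median was 0.40 (NLRP9 at 0.60 and PADI6 at 0.40). The adjusted p of KHDC3L from limma was 0.0776 after median scaling, 0.0648 without control replicate 2 and 0.204, 0.177 and 0.112 without GSKA replicates 1, 2 and 3, so its call did not hold there. KHDC3L was also the 1 call among 12 tested markers of the 8-cell embryo, whose median was 0.14, with the trophoblast factor TFAP2C at -1.02. Of 18 tested factors of maternal mRNA clearance, 2 were higher and 0 lower at an unadjusted p under 0.05 from limma. None passed after adjustment, and the median was 0.01. Groups did not overlap for 1 that was higher and 2 that were lower in the GSKA group. BTG4, the adaptor that brings maternal mRNA to the CCR4-NOT deadenylase, was at 25258, 23321 and 23336 FPKM in the GSKA libraries, against 12543, 13799 and 20812 FPKM in the control libraries, with no overlap (0.64, adjusted p = 0.224 from limma). The deadenylase CNOT7 was at 0.74 and the m6A reader YTHDF3 at -0.52. Among the markers of other cells, TNFAIP6, STAR and VCAN of the cumulus and granulosa list were at 1.09, 0.72 and 0.91. The median of the tested genes of that list was 0.62. Of 3 tested sperm markers 1 was higher and 0 lower at an unadjusted p under 0.05 from limma (median -0.39), namely the sperm transition protein TNP2 at 1.66, and none passed after adjustment. TNP2 had 5.13 FPKM at most. It left the test when any GSKA library was left out, where 2 sperm markers were tested and 0 were higher. It thus passed the filter only through the group where it was higher, so its fold change and p-value are not a result.

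**Figure D4:**
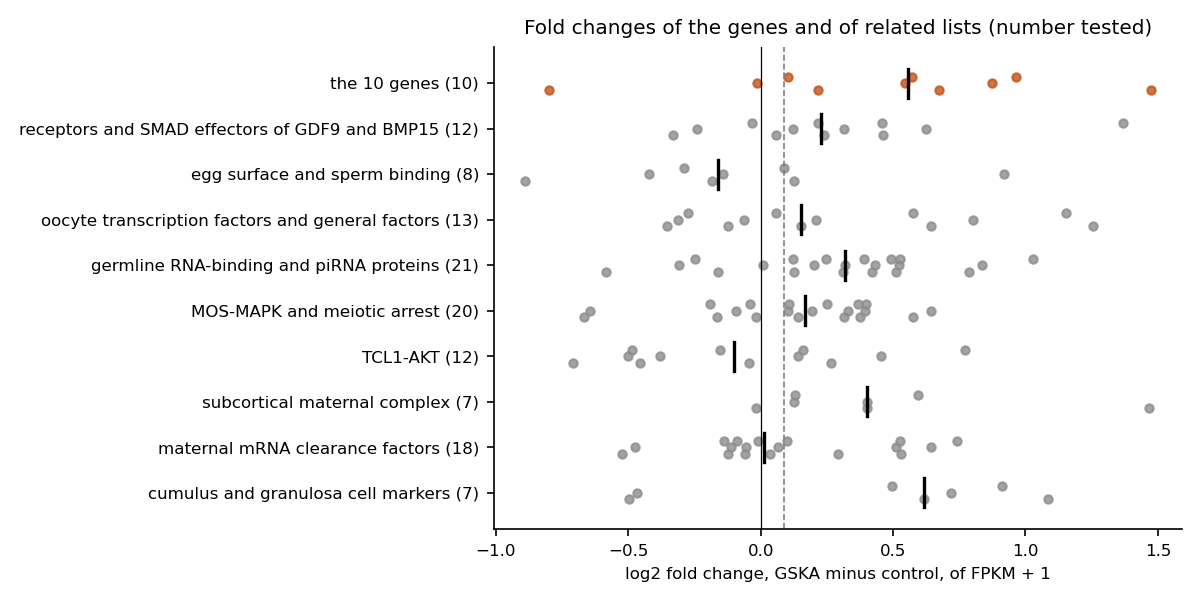
Log2 fold change, GSKA minus control, on log2(FPKM + 1) (horizontal axis) of the 10 genes (orange) and of the tested genes of 9 other lists (grey, number tested in brackets). Each point is a gene, black bars are list medians and the dashed line is the median of all tested genes, 0.09. The median is 0.56 for the 10 genes, 0.62 for the cumulus and granulosa cell markers, 0.40 for the subcortical maternal complex and 0.01 for the clearance factors.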

How the data were processed

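The authors' deposited values are FPKM, 1 value per gene and library, and the submitters' processing notes list StringTie 1.3.4d, HISAT2 2.0.4 and cutadapt 1.9 among the tools. The build of the genome was not given in the sources used here. Since low values formed no steps of 1 read, depth is unknown, and a count test could not be applied. The authors' table of fold changes, p-values and q-values from edgeR was not used. The files list 4 transcripts for ZP2, 3 for FIGLA, 2 for TCL1B and 1 for each of the other genes. No gene in the files overlaps any of the 10.

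A gene was tested if 3 or more libraries reached 1 FPKM, which kept 10654 of 18862 genes and all of the 10. Values were modelled as log2(FPKM + 1) in limma 3.58.1 (R 4.3.3), using group alone, an intensity trend and Benjamini-Hochberg adjustment over all tested genes. This scale understates the change of low genes. The fit was tested on simulated data. Members, lists, settings and named genes were chosen with earlier results of these data known. Named are all 10 genes, the 3 smallest p of each list, preset partners and the 5 genes most like the mean of the 10. POU5F1, MAP2K2 and the nearest genes on the chromosome were added after their values were seen. No sequences were printed, since none were in the files used here. Alternatives covered the pseudocount, filter, scaling, replicate number, variance model and each library left out.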

Additional observations from a re-analysis of the deposited data

How the results depend on the processing

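None of the 10 genes passed at an adjusted p under 0.05 from limma in any of the 15 alternatives, the replicate block included, where the lowest adjusted p of any was 0.115 (GDF9, without control replicate 3). Over all tested genes, 38 were called, against 15 with a pseudocount of 0.1, 0 with no filter on FPKM (0 of 18862, with 1106 higher and 558 lower at an unadjusted p under 0.05 from limma), 21 after median scaling, 19 with the replicate block and 7 without the intensity trend, and 4 to 34 with 1 library left out (34, 17 and 25 without control replicates 1, 2 and 3, and 5, 13 and 4 without GSKA replicates 1, 2 and 3). Same-numbered libraries deviated from their group means with correlations of -0.08, 0.14 and -0.12, against -0.12 to 0.18 for differently numbered libraries. A pairing by replicate number was therefore not detected, which with 3 libraries per group does not show that there was none. The number of the 10 genes with every GSKA library above every control was 5, where this held for 12.9% of all tested genes. After median scaling it was 3, where this held for 9.54%, with GDF9 and ZP4 lost. It was 5 to 6 with 1 library left out, where this held for 16.8% to 22.2% of all genes. Leaving out a library cannot remove a gene from this count, so that range does not test its stability. The number below every control in every GSKA library was 0, and it was 1 (DAZL) without control replicate 2, where 13.2% of all genes were. DAZL was also lower there at an unadjusted p under 0.05 from limma, as were 516 of 10286 tested genes. Signs were not kept for BMP15 (log2 fold change -0.11 to 0.31 with 1 library left out) and MOS (-0.18 to 0.10), and the cause was not tested. The other 8 genes kept their sign in every alternative, NOBOX in 14, as it was below the filter of at least 5 FPKM. Scaling without mitochondrial genes and the overlap counts under other settings were chosen after seeing the data. KHDC3L also kept its sign, with an adjusted p from limma of 0.0193 to 0.252, and was not called with a pseudocount of 0.1 (0.0574), no filter (0.252), the replicate block (0.0645) or without the intensity trend (0.126).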

Other observations

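The nearest annotated genes on the chromosome did not share one pattern with the 10. GDF9 lies 1905 bases from UQCRQ, a subunit of respiratory complex III on the other strand, which was at 95.5, 101 and 141 FPKM in GSKA replicates 1, 2 and 3 and 144, 126 and 96.9 FPKM in control replicates 1, 2 and 3 (log2 fold change -0.12, adjusted p = 0.872 from limma). TCL1B lies 29815 bases from TCL1A on the other strand, and both had a higher mean in the GSKA group. ZP2 lies 26383 bases from LDAF1, a lipid droplet protein, which was at 66.1, 52.4 and 43.0 FPKM in the GSKA libraries, against 35.9, 26.5 and 33.1 FPKM in the control libraries, with no overlap (0.73, adjusted p = 0.249 from limma). BMP15 lies 100586 bases from NUDT10, which was at 9.87, 9.76 and 16.8 FPKM in the GSKA libraries, against 29.0, 17.2 and 29.7 FPKM in the control libraries, below in every GSKA library (adjusted p = 0.209 from limma), while BMP15 itself overlapped between the groups. RPS20, 19488 bases from MOS, had a log2 fold change of 0.05 with overlapping groups.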
